A study of Mus musculus with 10 samples.

Results

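The proliferin genes are a small group of mouse genes in the prolactin family that encode secreted, glycosylated hormones. Prl2c1, Prl2c2, Prl2c3 and Prl2c5 were taken by gene symbol, 4 of the 20611 genes listed for whole skin of Klk6+ and WT mice. They were chosen because their read counts were high in Klk6+ skin and near 0 in WT skin, so their difference between the genotypes is given as a description with no test. Klk6 is kallikrein-related peptidase 6, a secreted serine protease.

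RNA from whole skin was sequenced from 5 Klk6+ mice and 5 WT mice, each with 3 males (replicates 1 to 3) and 2 females (replicates 4 and 5). Klk6+ mice carried Tetos-Klk6, which encodes mouse Klk6 with a C-terminal Myc/His tag, and the K5-tTA driver, a Tet-off design in which the bovine Keratin 5 promoter directs expression to keratinocytes of the epidermis and to certain further stratified squamous epithelia when doxycycline is absent. The libraries labelled WT came from littermates that, per the labels, had either 1 of these transgenes without expression or neither, and the labels do not say which applied to which mouse. Both lines were backcrossed to C57BL/6. Per the labels, Klk6+ mice went back on doxycycline chow at an age of 10 to 11 weeks, and tissue was taken at 14 to 16 weeks. They do not say whether WT mice were fed the same way. Libraries held 26521019 to 39796511 assigned read counts in Klk6+ skin and 32798416 to 41970272 in WT skin. Klk6 itself had 276268 to 561221 counts in Klk6+ libraries and 434 to 1100 in WT libraries, so each library went with its label. Doxycycline turns a Tet-off transgene down, yet Klk6 was still at 10290 CPM or more in every Klk6+ library, against 26.48 CPM at most in WT libraries (CPM, read counts scaled to a common effective library size). Counts from the transgene and from the mouse's own Klk6 gene cannot be told apart.

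Proliferins were first known as proteins released by mouse fibroblasts stimulated to grow and by trophoblast giant cells of the placenta. They bind the cation-independent mannose 6-phosphate receptor, encoded by Igf2r, and are known to stimulate the migration of endothelial cells and the growth of vessels in the placenta. In mouse skin, proliferin transcripts have been described in hair follicles and in healing wounds.

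All 4 genes lie on chromosome 13 of GRCm38 in the GENCODE M21 annotation. Prl2c3 (ENSMUSG00000056457.6, chr13:12790816-12800079, minus strand), Prl2c2 (ENSMUSG00000079092.4, chr13:12996125-13005383, minus strand) and Prl2c5 (ENSMUSG00000055360.13, chr13:13182715-13191923, plus strand) sit within 401.1 kb. Prl2c1 (ENSMUSG00000062551.13, chr13:27849342-27857788, plus strand) lies 14.66 Mb away, among the other prolactin-family genes. The coding sequences are near copies. Prl2c2 and Prl2c3 differed at 3 of 672 aligned coding bases (99.55% identity), Prl2c2 and Prl2c5 at 20 of 666 (97.0%), and Prl2c1 was 93.9% to 94.74% identical to the other three. The stretch below shows the clearest difference between the copies, from position 468 of each coding sequence, counted from the first base of the start codon. Capitals mark bases that differ from Prl2c5 or that Prl2c5 lacks.
Prl2c5: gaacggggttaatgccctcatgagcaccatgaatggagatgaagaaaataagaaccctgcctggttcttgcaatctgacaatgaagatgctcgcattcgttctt
Prl2c2: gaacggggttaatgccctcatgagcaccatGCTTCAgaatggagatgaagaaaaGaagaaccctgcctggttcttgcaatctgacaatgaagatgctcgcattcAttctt
Prl2c3: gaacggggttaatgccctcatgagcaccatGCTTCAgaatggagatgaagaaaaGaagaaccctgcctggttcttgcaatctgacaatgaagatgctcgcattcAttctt
Prl2c1: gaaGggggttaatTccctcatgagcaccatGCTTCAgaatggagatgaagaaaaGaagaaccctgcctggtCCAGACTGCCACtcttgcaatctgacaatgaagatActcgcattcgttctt
Prl2c2 and Prl2c3 are the same throughout this stretch, and both differ from Prl2c5 at 8 bases, 6 of them in 1 gap. Prl2c1 has the same 6 bases and a further insertion, with 22 bases unlike Prl2c5. A 50-base read, the length sequenced here, that spans the gap can tell Prl2c5 from the other 3 members, and no read inside this stretch can tell Prl2c2 from Prl2c3.

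Over the whole annotated transcripts, 488 of 795 windows of 50 bases in Prl2c5 (61.38%) occurred in no other annotated gene. The share was 578 of 803 in Prl2c1 (71.98%), 173 of 808 in Prl2c3 (21.41%) and 83 of 793 in Prl2c2 (10.47%). Prl2c2 and Prl2c3 shared 635 windows. Another annotated gene, Gm7040, shared 189 windows with each of Prl2c2 and Prl2c3, 82 with Prl2c5 and 19 with Prl2c1, and was not analysed here. No source used here says how reads that match several genes were counted, so values of single members are uncertain. The sum of the 4 rows is given beside them. It too depends on whether reads shared between members or with Gm7040 were counted.

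Prl2c5 carried most of the read counts assigned to the 4 proliferin genes. It had 1518, 1160, 6716, 6007 and 864 read counts in Klk6+ replicates 1 to 5, against 2, 5, 1, 3 and 8 counts in WT replicates 1 to 5. Replicates 3 and 4 were the high Klk6+ libraries, and the lowest Klk6+ library stood far above the highest WT library. Prl2c5 averaged 95.57 ± 78.25 CPM in Klk6+ skin and 0.105 ± 0.083 CPM in WT skin (SD, n = 5 each). The ratio of summed counts, corrected for the groups' summed effective library sizes, was 989 (95% counting interval 633 to 1643). This pooled ratio weights libraries by depth and so is not the quotient of the CPM means, and it is the ratio given for the genes below. For Prl2c5 the fitted difference was 9.82 ± 0.86 log2. After a fitted log2 difference, ± gives an approximate standard error, the size of the difference divided by the square root of the edgeR F statistic. For the members it is not read as a test. The counting intervals, and the floors used below for counts of 0, take in counting error alone. Both use counts summed over the mice of a group. They leave out the spread between mice and any PCR copies of a molecule counted as separate reads.

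Prl2c2, the copy whose transcript has the fewest windows of its own, had 140, 171, 1010, 591 and 274 counts in Klk6+ replicates 1 to 5, against 2 counts in WT replicate 3 and 0 in the other four WT libraries. It was also highest in Klk6+ replicates 3 and 4. It averaged 12.99 ± 9.37 CPM in Klk6+ skin and 0.012 ± 0.027 CPM in WT skin (SD, n = 5 each). Its ratio of summed counts was 1262, with a wide counting interval of 349 to 10430. The fitted difference was 9.81 ± 0.93 log2, and it was 11.84 without WT replicate 3, the WT library that held both counts.

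Prl2c1, the member that stands apart on the chromosome, had 44, 46, 220, 201 and 39 counts in Klk6+ replicates 1 to 5 and 0 in every WT library. The pattern of 2 high and 3 low Klk6+ libraries was the one seen for Prl2c5. Against a floor of 3 counts over the WT group, Prl2c1 was at least 212-fold higher in Klk6+ skin. Prl2c3 had 5, 16, 76, 19 and 23 counts in Klk6+ replicates 1 to 5 and 0 in every WT library, at least 53.5-fold higher on the same floor. It was highest in replicate 3 and lowest in replicate 1. In replicate 4, high for the other 3 members, it had 0.587 CPM, the middle value of the Klk6+ libraries.

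The 4 rows together had 1707, 1393, 8022, 6818 and 1200 counts in Klk6+ replicates 1 to 5, against 2, 5, 3, 3 and 8 in WT replicates 1 to 5. That is 112.6 ± 89.6 CPM in Klk6+ skin and 0.117 ± 0.073 CPM in WT skin (SD, n = 5 each). The ratio of summed counts was 1053 (95% counting interval 688 to 1701). The sum made up 0.00453% to 0.0215% of all counts in Klk6+ libraries. Prl2c1, Prl2c2 and Prl2c5 passed the filter on low counts, and did so through the Klk6+ group. Prl2c3 did not pass and was not fitted. None of the 4 members overlapped between the genotypes. Of all 14861 genes tested, 30.1% were higher in every Klk6+ library than in every WT library. Because the members were chosen on this contrast, nothing is read from their count.

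**Figure D1:**
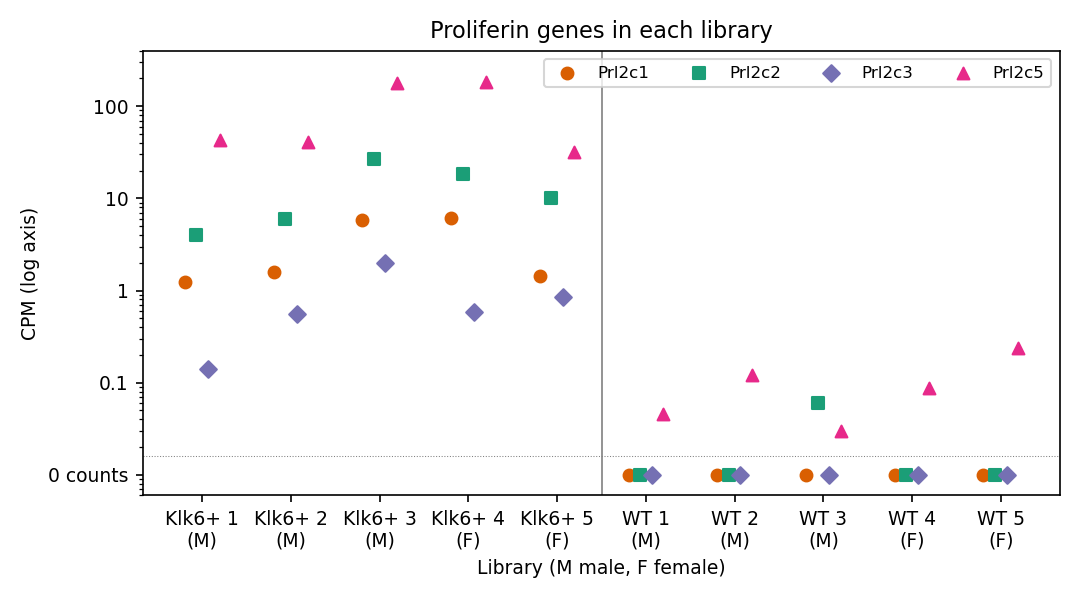
CPM (log axis, with 0 counts drawn on a separate line) of the 4 proliferin genes in each Klk6+ and WT library, 1 point per gene and library, sex given under each name. Klk6+ replicates 3 and 4 are high for Prl2c5 at 176.8 and 185.4 CPM, and Prl2c5 in WT libraries stays at or below 0.239 CPM.

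The spread among the Klk6+ mice was wide. Summed proliferin was 48.4, 48.5, 211.2, 210.5 and 44.7 CPM in Klk6+ replicates 1 to 5, so 3 libraries lay close together and 2 lay well above them, with a ratio of 4.72 between the highest and the lowest. The SD of log2(CPM + 0.5) over the 5 Klk6+ libraries was 1.18 for the sum, while the median was 0.16 among the 3101 genes tested whose mean CPM was within 2-fold of it, and 13 of those genes (0.419%) had a larger SD. For Prl2c5 the SD was 1.23, with 14 of 3517 genes of like level (0.398%) above it. Prl2c2 had an SD of 1.07, with 1.95% of genes of like level above it. The SD was 0.96 for Prl2c1 (3.62% above) and 0.71 for Prl2c3 (3.74% above). Prl2c3 was at 0.142 to 2.00 CPM in Klk6+ libraries, so the 0.5 added before taking logs lowers its SD. Its ratio between the highest and the lowest Klk6+ library was 14.12, against 5.76 for Prl2c5, but its lowest library held only 5 counts. Klk6 varied less, with an SD of 0.22 and a ratio of 1.44 between the highest and the lowest Klk6+ library. Klk6 had 11760, 14490, 14770, 11700 and 10290 CPM in Klk6+ replicates 1 to 5. Replicate 3 was highest for Klk6, while replicates 1 and 4 were almost equal for Klk6 and far apart for summed proliferin.

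Sex was not used to choose the genes and could be tested within the Klk6+ mice. Summed proliferin was 127.6 ± 117.2 CPM in 2 female and 102.7 ± 93.9 CPM in 3 male Klk6+ mice, a log2 difference of 0.31 ± 0.73 (edgeR quasi-likelihood test, Benjamini-Hochberg adjusted p = 0.998). Each sex held 1 of the 2 high libraries, replicate 3 a male and replicate 4 a female. Prl2c5 (0.33 ± 0.76), Prl2c2 (0.22 ± 0.78) and Prl2c1 (0.41 ± 0.86) likewise did not pass the test (edgeR adjusted p = 0.998 each). Of all genes tested, 0.0336% were called between the sexes in Klk6+ skin. The sign of the summed difference turned without Klk6+ replicate 1, 2 or 4 (-0.06, -0.02 and -1.20 log2), and was 1.41 without replicate 3. The genotype-by-sex interaction of the sum was -0.60 ± 2.16 log2 (edgeR adjusted p = 0.955), with a standard error too large to give a direction and WT counts close to 0.

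Prl2c5 held most of the signal in every Klk6+ library, but the make-up varied between them. In read counts, Prl2c5 took 83.2% ± 6.76 of the 4-gene sum, Prl2c2 12.9% ± 5.90, Prl2c1 2.96% ± 0.314 and Prl2c3 0.917% ± 0.680 (SD, n = 5). Prl2c1 held nearly the same share in every library (2.58% to 3.30%). Prl2c5 held 88.9%, 83.3%, 83.7%, 88.1% and 72.0% of the sum in Klk6+ replicates 1 to 5, and Prl2c2 held 8.20%, 12.3%, 12.6%, 8.67% and 22.8%. Replicates 1 and 4 were high for Prl2c5, with exact binomial 95% intervals of 87.3% to 90.4% and 87.3% to 88.9%. The intervals of replicates 2 and 3 lay below these (81.2% to 85.2% and 82.9% to 84.5%). Intervals of this kind take in counting error alone and leave out PCR copies counted as separate reads. The Prl2c3 share was 0.293%, 1.15%, 0.947%, 0.279% and 1.92% in the same order. Replicate 5 had the lowest Prl2c5 share and the highest Prl2c2 and Prl2c3 shares, and in it Prl2c5 had 3.15 times the counts of Prl2c2, against 6.65 to 10.84 times in the other four. The 4 annotated transcripts are alike in length, at 842 to 857 bases. They differ in windows found in no other gene, with 488 for Prl2c5 and 83 for Prl2c2. Shares of counts therefore also depend on how shared reads were counted, and are not shares of transcripts.

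The deposited FPKM values (fragment values scaled to transcript length and library size) gave a different make-up for Prl2c3. Prl2c3 was at 8.08, 12.7, 66.1, 33.4 and 21.2 FPKM in Klk6+ replicates 1 to 5, and at 0.000511 FPKM or less in every WT library. On this scale it took 13.75% ± 5.65 of the 4-gene sum (SD, n = 5). That was more than Prl2c2 at 9.48% ± 3.80 in every Klk6+ library, while Prl2c5 took 74.5% ± 9.38. Prl2c3 in FPKM was higher in replicate 4 than in replicates 1, 2 and 5, while in CPM replicate 4 was the middle Klk6+ library. For Prl2c1, Prl2c2 and Prl2c5, FPKM divided by CPM of the plain library total was steady, at 1.55 to 1.56, 1.49 to 1.50 and 1.77 to 1.79 over the 5 Klk6+ libraries. For Prl2c3 it was 58.0, 24.2, 34.6, 55.7 and 24.5. Among 14570 genes with enough counts in every Klk6+ library, 6 had a higher median of this quotient, and the median of all was 0.345. Counts and FPKM therefore differed in how much was assigned to Prl2c3. Prl2c4 has a row of its own in the deposited tables, but RefSeq lists it as a synonym of Prl2c3, so both rows may stand for 1 gene. The Prl2c4 row had 0, 0, 0, 0 and 1 counts in Klk6+ replicates 1 to 5, with 3.27, 0.000395, 0.00117, 18.5 and 1.71 FPKM. Counts and FPKM thus differed for it in replicates 1, 4 and 5, and both were at or near 0 in replicates 2 and 3. The assignment of shared reads was not tested as the source of these differences.

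**Figure D2:**
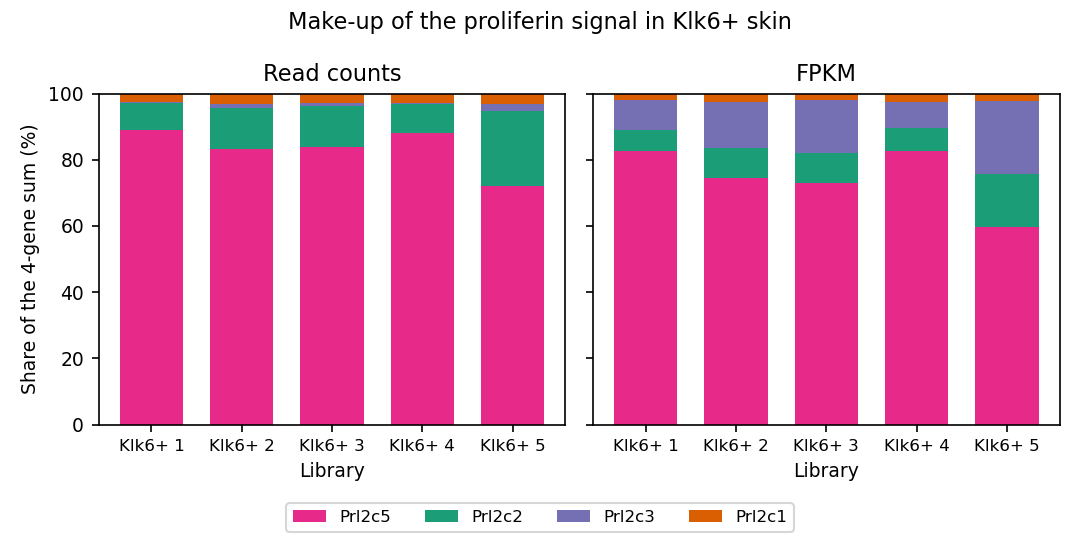
Share (%) of the 4-gene sum held by each proliferin gene in the 5 Klk6+ libraries, in read counts (left) and in FPKM (right). Prl2c5 holds the largest share on both scales, and Prl2c3 holds 0.917% of counts and 13.75% of FPKM on average.

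**Figure D3:**
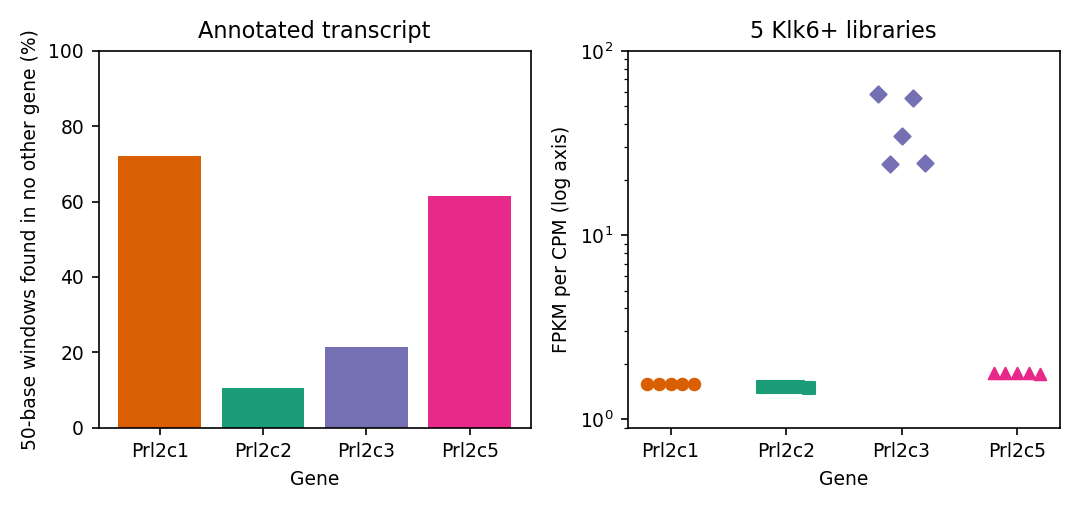
Left, share (%) of 50-base windows of each annotated transcript that occur in no other gene; right, FPKM per CPM of the library total (log axis), 1 point per Klk6+ library. Prl2c2 and Prl2c3 have few windows of their own (10.47% and 21.41%), and Prl2c3 alone stands at 24.2 to 58.0 FPKM per CPM while the other 3 stand at 1.49 to 1.79.

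The other prolactin-family genes were nearly silent in WT skin and low in Klk6+ skin. The 24 listed, which include prolactin (Prl), the placental lactogens Prl3d1, Prl3d2, Prl3d3 and Prl3b1, and growth hormone (Gh), had 642 counts in all Klk6+ libraries together, against 2 in all WT libraries. Of the 24, 9 had any count in Klk6+ skin and 2 in WT skin, and 15, including Prl, Gh and the placental lactogens named, were at 0 in all 10 libraries. None passed the filter on low counts, so none was tested.

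Prl2a1, the neighbour of Prl2c1, had 4, 107, 114, 82 and 19 counts in Klk6+ replicates 1 to 5, against 1 count in WT replicate 1 and 0 in the other WT libraries, a ratio of summed counts of 376 (95% counting interval 67.1 to 14920). Prl8a9 had 6, 27, 66, 67 and 12 counts in Klk6+ replicates 1 to 5, against 1 in WT replicate 2 and 0 in the other WT libraries (ratio of summed counts 206, interval 36.4 to 8165). Both were high in Klk6+ replicates 3 and 4 and low in replicate 1. In CPM, Prl2a1 was highest in replicate 2 (3.73, against 3.00 and 2.53 in replicates 3 and 4), where the proliferin sum was low. Prl7b1, with 0, 29, 28, 11 and 9 counts in Klk6+ replicates 1 to 5 and 0 in WT skin, was at least 29.6-fold higher. Prl7d1 had 5, 0, 14, 11 and 2 counts in Klk6+ skin and 0 in WT skin (at least 12.3-fold), and Prl8a1 had 9 and 7 counts, in Klk6+ replicates 3 and 4 alone (at least 6.16-fold against 0 in WT skin). Prl6a1, Prl8a6, Prl7c1 and Prl2c4 had 1 to 5 counts in all Klk6+ libraries together and 0 in WT skin. The family sum was 0.453, 5.85, 6.13, 5.59 and 1.64 CPM in Klk6+ replicates 1 to 5, and 0.0241 CPM at most in WT libraries.

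**Figure D4:**
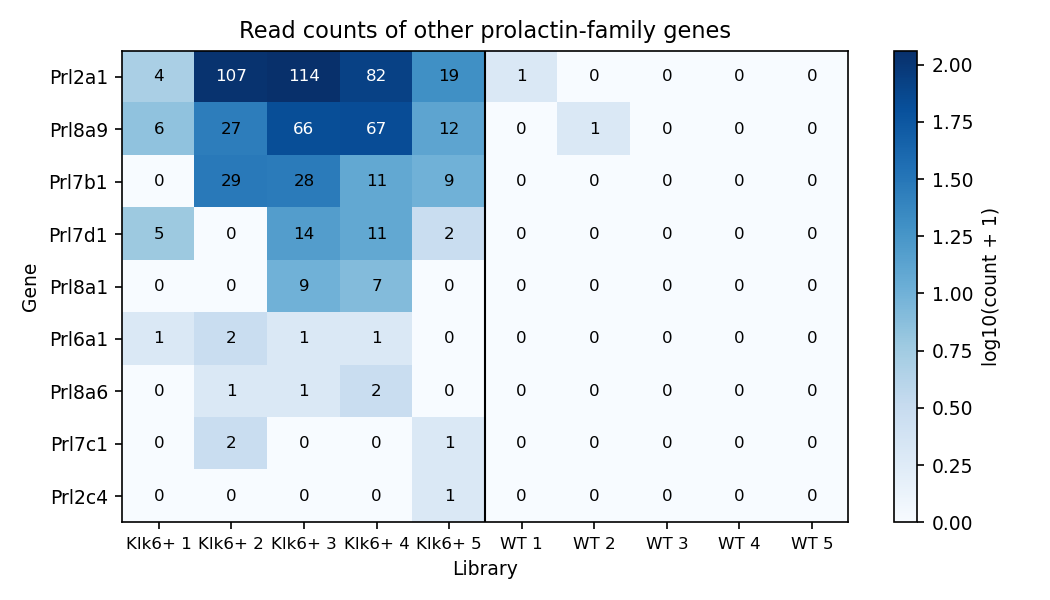
Read counts (numbers; colour, log10(count + 1)) of the 9 other prolactin-family genes with any count, by library, Klk6+ left of WT. Klk6+ libraries hold 642 of these counts and WT libraries hold 2.

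The genes on either side of Prl2c3, Prl2c2 and Prl2c5 differed less and in both directions. Edaradd, which encodes an adaptor of ectodysplasin signalling, rose in Klk6+ skin (1.04 ± 0.29 log2, edgeR adjusted p = 0.00883). Ero1lb (-0.69 ± 0.15, adjusted p = 0.00201), Gpr137b, which has a pseudogene copy nearby (-0.82 ± 0.10, adjusted p = 4.11e-05) and the basement membrane gene Nid1 (-2.11 ± 0.20, adjusted p = 6.22e-06) fell. The fitted log2 difference of the summed proliferin row was 9.91 ± 0.82, beside -2.11 to 1.04 for these 4 genes. The neighbours of Prl2c1 are themselves prolactin-family genes. On one side lie Prl2a1, with 326 counts in all Klk6+ libraries together and 1 in WT libraries, and Prl7c1, with 3 against 0. On the other side, Prl4a1 and Prl5a1 were at 0 in all 10 libraries.

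RefSeq promoter sequences (GRCm38.p6) were at hand for Prl2c3 and Prl2c5, 2 of the 4 members, and none was used for Prl2c1 and Prl2c2. They are shown because proliferin promoters are known for an AP-1 site, bound by Fos and Jun proteins, beside which the glucocorticoid receptor also acts. Each is 250 bases up to the transcription start, read in the direction of the gene. Capitals mark the AP-1 letters TGANTCA and the TATA letters TATATAA, both searched on both strands, with no overlap between them in these windows.
Prl2c3, chr13:12800080-12800329, minus strand: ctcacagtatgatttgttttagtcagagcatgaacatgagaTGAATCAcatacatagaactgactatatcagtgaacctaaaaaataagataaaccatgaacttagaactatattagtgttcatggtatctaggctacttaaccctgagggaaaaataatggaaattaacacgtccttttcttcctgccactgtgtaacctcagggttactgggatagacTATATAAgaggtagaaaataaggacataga
Prl2c5, chr13:13182466-13182715, plus strand: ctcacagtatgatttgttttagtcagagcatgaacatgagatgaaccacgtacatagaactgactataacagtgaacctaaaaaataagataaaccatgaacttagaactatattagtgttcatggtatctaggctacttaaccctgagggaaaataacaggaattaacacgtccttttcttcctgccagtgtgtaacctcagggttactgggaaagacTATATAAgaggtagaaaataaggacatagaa
Over the 299 aligned bases of the full windows, which reach 50 bases past the start, the 2 promoters differed at 12 (95.99% identity). The TATA letters stood at -30 in Prl2c3 and -31 in Prl2c5. The AP-1 letters stood at -209 in Prl2c3 and were not found in the Prl2c5 window. Of 32851 promoter windows, 7.81% held the AP-1 letters and 3.24% the TATA letters. Of the 20 other prolactin-family genes with a promoter entry, 8 held the AP-1 letters and 5 the TATA letters. Prl2c5 had the higher level of the pair on both scales, though values of single members are uncertain. The part of the AP-1 letters in these levels was not tested.

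The receptors split. Igf2r, the receptor that proliferin binds, fell to 55.7 ± 14.8 CPM in Klk6+ skin, against 82.1 ± 16.3 CPM in WT skin (SD, n = 5 each; -0.56 ± 0.16 log2, edgeR adjusted p = 0.0107). It was 40.30, 53.87, 57.33, 47.29 and 79.51 CPM in Klk6+ replicates 1 to 5, against 59.30, 87.89, 71.20, 93.73 and 98.15 CPM in WT replicates 1 to 5, so the groups overlapped. Growth hormone receptor (Ghr) fell by more, to 61.1 ± 8.95 CPM in Klk6+ skin against 226.5 ± 31.5 CPM in WT skin (-1.89 ± 0.13 log2, adjusted p = 1.26e-06). The cation-dependent mannose 6-phosphate receptor M6pr rose (0.61 ± 0.08 log2, adjusted p = 8.90e-05). The prolactin receptor Prlr was at 34.3 ± 17.9 CPM in Klk6+ skin and 23.0 ± 6.21 CPM in WT skin and did not pass the test (0.56 ± 0.34 log2, adjusted p = 0.160). Of the 4 receptors, 1 rose and 2 fell. These counts, and those of the gene lists below, stand beside a background of many called genes. Of the 14861 genes tested, 72.8% were called between the genotypes, 37.7% higher and 35.1% lower in Klk6+ skin. The median log2 difference of all genes tested was 0.04. In whole skin, a different share of a cell type and a different RNA level per cell cannot be told apart.

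Among 7 genes of signalling below the prolactin and growth hormone receptors, 2 rose and 2 fell, with a median log2 difference of -0.09. Of all genes tested, 37.7% rose and 35.1% fell. Stat5b (-1.38 ± 0.13, adjusted p = 7.90e-06) and Stat5a (-0.64 ± 0.08, adjusted p = 2.91e-05), the transcription factors that these receptors activate through Jak2, fell in Klk6+ skin. Socs1 (1.93 ± 0.28, adjusted p = 0.000118) and Socs3 (1.51 ± 0.35, adjusted p = 0.00258), inhibitors of cytokine receptor signalling, rose. Jak2 (-0.09 ± 0.10, adjusted p = 0.434) and Socs2 (-0.08 ± 0.21, adjusted p = 0.756) did not pass. Cish, a STAT5 target, was at -0.52 ± 0.24 log2 (edgeR adjusted p = 0.0755), and passed with DESeq2 (adjusted p = 0.0453).

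Of 8 genes for transcription factors known to act on the proliferin promoter, 4 rose and 1 fell. The shares over all genes tested were 37.7% higher and 35.1% lower. Junb rose to 436.3 ± 115.8 CPM in Klk6+ skin, against 123.1 ± 75.4 CPM in WT skin (1.88 ± 0.33 log2, edgeR adjusted p = 0.000449). It was 362.4, 467.4, 591.9, 288.7 and 471.2 CPM in Klk6+ replicates 1 to 5, and was lowest in replicate 4, one of the 2 libraries with high proliferin. Fosl2 (1.11 ± 0.17, adjusted p = 0.000161) and Jun (0.49 ± 0.15, adjusted p = 0.0122) also rose, though Jun did not pass with genotype fitted alone (adjusted p = 0.0693). Fosl1 had 69, 191, 297, 37 and 158 counts in Klk6+ replicates 1 to 5, against 3, 141, 7, 3 and 2 in WT replicates 1 to 5. It rose by 3.04 ± 1.05 log2 (adjusted p = 0.0235), by 5.39 without WT replicate 2, and did not pass without WT replicate 4 or 5 (adjusted p = 0.0623 and 0.0581). Among the Klk6+ libraries, Fosl1 was lowest in replicate 4 (1.14 CPM) and highest in replicate 3 (7.82 CPM). Replicate 3, the other library with high proliferin, was also the highest Klk6+ library for Junb. The part of these genes in the proliferin levels was not tested. Nr3c1, the glucocorticoid receptor, fell to 87.3 ± 7.70 CPM in Klk6+ skin, against 223.9 ± 15.3 CPM in WT skin (-1.36 ± 0.08 log2, adjusted p = 7.02e-07). Fos (0.90 ± 0.60, adjusted p = 0.199), Fosb (-1.48 ± 0.69, adjusted p = 0.0777) and Jund (-0.35 ± 0.25, adjusted p = 0.226) did not pass. Fos passed without WT replicate 1 (1.86, adjusted p = 0.000138), and Fosb passed without Klk6+ replicate 2 (-2.30, adjusted p = 0.0022).

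Of 5 growth factor genes, chosen because serum and growth factors raise proliferin in cultured mouse fibroblasts, 1 rose and 3 fell. Beside this, 37.7% of all genes tested rose and 35.1% fell. Tgfa, an epidermal growth factor receptor ligand made by keratinocytes, rose to 122.4 ± 37.0 CPM in Klk6+ skin, against 22.5 ± 5.81 CPM in WT skin (2.47 ± 0.25 log2, edgeR adjusted p = 1.12e-05). Egf (-2.80 ± 0.29, adjusted p = 1.27e-05), Fgf2 (-1.65 ± 0.34, adjusted p = 0.00142) and Pdgfb (-1.50 ± 0.17, adjusted p = 2.57e-05) fell, and Pdgfa did not pass (0.07 ± 0.17, adjusted p = 0.706).

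Markers of the cell types that skin can hold were set beside the proliferin levels. Their counts of genes called stand beside 37.7% of all genes tested that rose and 35.1% that fell. Keratinocyte markers were abundant in both genotypes (18510 to 28360 summed CPM in Klk6+ and 5379 to 15700 in WT libraries), and the tissue label was skin. Of the 5 keratinocyte genes tested, 3 rose (Krt5, Krt14 and Krt1) and 2 fell. Those that fell were Krt10 (-0.54 ± 0.19 log2, edgeR adjusted p = 0.0278) and Lor (-1.01 ± 0.40, adjusted p = 0.0416). The wound-edge keratins Krt6a, Krt6b (near copies of each other), Krt16 and Krt17 all rose, summing to 18240 to 31330 CPM in Klk6+ libraries and 499.5 to 1149 CPM in WT libraries. The 4 neutrophil genes all rose, summing to 85.8, 52.9, 308.0, 86.0 and 253.0 CPM in Klk6+ replicates 1 to 5 and to 5.37 to 21.2 CPM in WT libraries. Of 9 hair follicle genes, 3 rose, and their sum was 622.5, 5033, 23.5, 984.0 and 27.0 CPM in Klk6+ replicates 1 to 5 and 18.3 to 356.3 CPM in WT libraries. The 6 fibroblast genes, 8 endothelial genes and 5 skeletal muscle genes all fell, with median log2 differences of -1.46, -0.54 and -3.78. Klk6+ replicate 3 had the lowest hair follicle sum and the highest neutrophil sum of the Klk6+ libraries. Klk6+ replicate 4, with almost the same proliferin level, had a high hair follicle sum and a neutrophil sum close to that of replicate 1. The part of these cell types in the proliferin levels was not tested.

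Trophoblast markers were looked at because placental trophoblast is a known source of proliferin. The 8 listed summed to 4.70 to 12.7 CPM in Klk6+ libraries and 3.53 to 7.17 CPM in WT libraries, and most of this was Ascl2. Tpbpa, a spongiotrophoblast gene, had 0 counts in all 10 libraries. Ctsq and Ctsj, cathepsins of the placenta, had 2 counts each, all in Klk6+ replicate 3. Hand1 had 34 counts in all Klk6+ libraries together and 0 in WT libraries, and Plac1 had 18 against 0. Gcm1 had 25 counts in Klk6+ libraries together and 47 in WT libraries. Of the 8 listed, 2 could be tested and 1, Ascl2, rose (0.89 ± 0.35 log2, edgeR adjusted p = 0.0432), at 3.88 to 11.45 CPM in Klk6+ libraries and 2.87 to 6.41 CPM in WT libraries. Syna, the other, had 49 counts in Klk6+ libraries together and 103 in WT libraries (-0.91 ± 0.41 log2, edgeR adjusted p = 0.0691). The part of these genes' source cells in the proliferin levels was not tested.

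**Figure D5:**
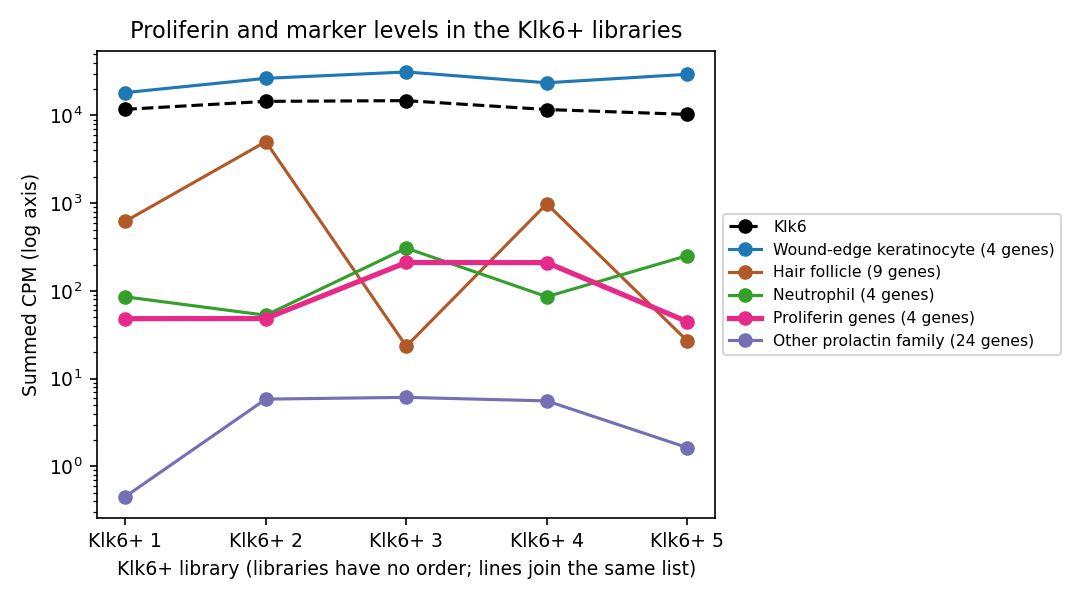
Summed CPM (log axis) of the proliferin genes, Klk6 and marker lists in the 5 Klk6+ libraries, where lines join values of 1 list and the libraries have no order. Proliferin is high in replicates 3 and 4, neutrophil genes are high in replicates 3 and 5, and hair follicle genes are high in replicates 1, 2 and 4.

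Likeness of other genes to summed proliferin over the 10 libraries was measured as the root mean square difference of log2(CPM + 0.5), each gene centred on its own mean, among genes tested. The closest were Defb3 (0.58), Cdhr1 (0.63), Gm5416 (0.68), Lce3b (0.72) and Lce3a (0.73). Defb3, a beta-defensin, had 107.9, 165.4, 217.1, 214.0 and 134.2 CPM in Klk6+ replicates 1 to 5 and 0.478 CPM at most in WT libraries. Cdhr1, a cadherin-related gene, had 45.0, 45.0, 77.6, 76.9 and 56.3 CPM in Klk6+ replicates 1 to 5 and 0.299 CPM at most in WT libraries. Both were highest in Klk6+ replicates 3 and 4, with a narrower range than proliferin. Lce3a and Lce3b, late cornified envelope genes, were lowest in Klk6+ replicate 1 and nearly level in the other four. Lce3a and Lce3b are near copies of other Lce3 genes, so their single values are uncertain. All 5 genes were at 0.478 CPM or less in every WT library, so the measure also reads the genotype difference on which the proliferin genes were chosen.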

How the data were processed

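For each mouse the authors deposited gene symbols with whole-number read counts, not normalized, and FPKM. FPKM values were scaled to length and library size by the authors. The submitters' processing notes name the builds GRCm38 and mm10 and, as tools, Cufflinks (2.2.1), HTSeq, TopHat2 and SAMtools, but not which tool made which value. No source used here gives the annotation or the handling of reads matching several genes. Libraries were polyA-selected without strand and read as single ends of 50 bases, per the labels' protocols. With no batch or litter given, p-values measure the spread between these mice.

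The 4 members and the gene lists were chosen with earlier results of these data known. Named genes were the members, all family genes with a count, all genes of the 4 lists on receptors, signalling, transcription factors and growth factors, the 5 most alike profiles and Klk6. The genes beside the members and the marker genes were named as well.

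Counts were fitted in R 4.3.3 with edgeR 4.0.16 (filterByExpr on genotype, minimum count 10, 14861 genes; TMM; quasi-likelihood F test). Genotype was tested with sex as a covariate, and sex and interaction from 4 genotype-by-sex means, with Benjamini-Hochberg adjustment over all genes and a threshold of 0.05. The biological coefficient of variation was 0.244. A further fit replaced the 4 member rows by their sum. CPM use the effective library size, and 1 count was worth 0.0238 to 0.0377 CPM of the library total. Alternatives were RLE scaling, no filter, DESeq2 1.42.0, genotype alone, limma 3.58.1 on log2(FPKM + 0.01) and log2(FPKM + 0.1), and each library left out. Each fit was tested on simulated data. Coding sequences were aligned with MAFFT 7.526. No pair of libraries agreed within sampling noise. RefSeq's promoter table held 2 of the 4 members.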

Additional observations from a re-analysis of the deposited data

Results flagged for a closer look

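Of 101 group values checked, 14 had 1 library standing far from the rest of its group. Chance flags about 1 in 20 groups, but a group with counts in 1 library alone is always flagged. That was so for Prl2c2, Prl2a1, Prl2c4, Prl8a9, Ctsq and Ctsj, so the 14 are not read against that rate. A pair of high libraries, as for the proliferin genes in Klk6+ replicates 3 and 4, cannot be found by this check. Of the proliferin genes, Prl2c2 was picked out in WT replicate 3 (0.0598 CPM, others 0), where it had 2 counts. Single counts were behind Prl2c4 in Klk6+ replicate 5 (0.0373 CPM), Prl2a1 in WT replicate 1 (0.0230 CPM) and Prl8a9 in WT replicate 2 (0.0241 CPM). Ctsq and Ctsj had 2 counts each in Klk6+ replicate 3 (0.0527 CPM each). Among AP-1 genes, Fos was 756.9 CPM in WT replicate 1, Fosl1 was 3.39 CPM and Jund 478.2 CPM in WT replicate 2. Lce3a (63.3 CPM) and Lce3b (82.2 CPM) were low in Klk6+ replicate 1, and Lce3b also in WT replicate 3 (0.179 CPM). Syna was high in Klk6+ replicate 4 (0.648 CPM), and Ascl2 in WT replicate 1 (6.41 CPM).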

How the results depend on the processing

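The number of genes called between the genotypes was 10319 to 10744 with a library left out. Genes called between the sexes in Klk6+ skin numbered 5 with edgeR, 19 with DESeq2, and 4 to 8 with a library left out, 8 without Klk6+ replicate 4. The interaction gave 0 calls with edgeR (1410 genes at an unadjusted p below 0.05), 261 with DESeq2, 1 with limma on either FPKM scale, and 0 to 4 with a library left out. The log2 sex difference of summed proliferin ranged from -1.20 to 1.41 with a library left out (adjusted p over all its alternatives 0.56 to 1.0). The same ranges were -0.99 to 1.45 for Prl2c1, -0.25 to 1.55 for Prl2c2, -1.43 to 1.40 for Prl2c5 and -2.13 to 0.46 for the interaction of the sum. Socs2 (-0.22 to 0.0589) and Pdgfa (-0.12 to 0.14) also changed sign between genotypes, without passing the test. With limma on FPKM the Prl2c1 difference was 8.60 (pseudocount 0.01) or 5.32 (0.1), and the Prl2c2 difference 7.08 (0.1). Of 384 alternative values of the 24 listed genes, 369 kept direction and side of the threshold, 3 lost the call, 7 gained it and 5 turned sign; 17 genes kept both throughout. Beyond the alternatives already given for single genes, Cish passed without WT replicate 4 and without Klk6+ replicate 3 (edgeR adjusted p = 0.0273 and 0.0481). Fosb passed with limma on log2(FPKM + 0.01) and on log2(FPKM + 0.1) (limma adjusted p = 0.0182 each). The causes were not tested. No paired analysis was possible because replicate numbers were given in accession order. Depth limits the WT values, since a WT group with 0 counts allows up to 3.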
